A study of Homo sapiens with 8 samples.

Results

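The 10 genes followed here control passage through the G1 phase of the cell cycle, and their transcripts were measured by RNA sequencing in human cells. They are the D cyclins CCND1, CCND2 and CCND3, the E cyclins CCNE1 and CCNE2, the kinases CDK4 and CDK6, and the kinase inhibitors CDKN1B, CDKN1C and CDKN2C. They were taken by gene symbol from the deposited expression table, where all 10 were found among 22504 genes. All 10 also passed the filter on low values, which kept 12996 genes.

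In G1, D cyclins bind CDK4 or CDK6 and E cyclins bind CDK2. Both kinds of complex phosphorylate the retinoblastoma protein RB and its relatives, which releases E2F transcription factors and allows the genes of DNA replication to be expressed. Growth factors in serum are classically known to raise D cyclin synthesis through immediate-early transcription factors. Inhibitors hold the complexes back. CDKN1B and CDKN1C belong to the Cip/Kip family, which blocks cyclin E with CDK2, and CDKN2C belongs to the INK4 family, which binds CDK4 and CDK6 and keeps D cyclins off them.

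The cells were U2OS, an established osteosarcoma line, and polyadenylated RNA was sequenced on an Illumina instrument. Cells overexpressed the actin mutant G13R, a substitution known to keep actin from polymerizing, or expressed GFP as the control. Each kind of cell was sampled under normal growth and after serum stimulation, so there were 4 groups (GFP normal, GFP serum, G13R normal, G13R serum) of 2 libraries each, 8 in all. The study's title asks how nuclear actin takes part in inducible transcription. The labels give neither the actin gene that was mutated, the promoter driving it, the length of the serum treatment, a serum withdrawal before it, nor whether the cells were a clone or a pool. Nor is it said that the 2 libraries of a group are separate cultures, so the p-values here reflect library-to-library spread that may be technical.

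Levels are in FPKM (fragments normalized to transcript length and library size), which allows levels to be compared between genes. The summed FPKM lay between 496166 and 559496 per library, and 12065 to 12568 genes reached 1 FPKM. Read depth is unknown because the table holds no counts. ACTB lay at 2543 to 2779 FPKM in the 4 GFP libraries and at 7949 to 11245 in the 4 G13R libraries. Of 9 osteoblast lineage markers, 5 had a mean of at least 1 FPKM and 3 stayed below 1 in every library. Their summed level was 601 to 689 FPKM in GFP normal, 693 to 848 in GFP serum, 470 to 512 in G13R normal and 546 to 592 in G13R serum. Leukocyte markers were below 1 in every library for 6 of 7, endothelial markers for 5 of 5 and neural markers for 3 of 6. The summed level of 7 epithelial markers was 693 to 788 FPKM in GFP normal, 908 to 1070 in GFP serum, 537 to 597 in G13R normal and 705 to 710 in G13R serum. Both sums were higher after serum without overlap in each kind of cell. They rest mostly on a few genes, with GFP normal means of 559 FPKM for SPARC, 397 for KRT18 and 335 for KRT8. The means of SPP1, COL1A1 and CDH1 were lower after serum in both kinds of cell. Those of SPARC, KRT8, KRT18, RUNX2, ALPL, EPCAM and CLDN4 were higher in both. The part of these markers in the serum results was not tested. GFP serum replicate 2 held the highest value of all 8 libraries for 4 of the 10 genes (CCNE2, CDKN1B, CDKN1C and CDKN2C) and the lowest for 2 (CCNE1 and CDK6). Several results that rest on it are therefore given with and without it.

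For the genes that moved with serum in GFP cells, the 250 bases before an annotated start are shown, because these are the stretches in which shared sequence elements were looked for. They come from RefSeq on GRCh38.p14 and run from 5′ to 3′ on the strand of the gene. Such stretches were found for 6 of the 10 genes, as 11 entries in all, and CCND1, CCND2, CCNE2 and CDKN1C have none here. Capitals mark matches to a motif on either strand. The CDKN1B stretch is chr12:12717118-12717367 on the plus strand, and the CDKN2C stretch is chr1:50968456-50968705 on the plus strand, the entry of 3 for this gene with the most matches. The CDK4 stretch is chr12:57752311-57752560 on the minus strand, and the CCNE1 stretch is chr19:29811741-29811990 on the plus strand.
CDKN1B: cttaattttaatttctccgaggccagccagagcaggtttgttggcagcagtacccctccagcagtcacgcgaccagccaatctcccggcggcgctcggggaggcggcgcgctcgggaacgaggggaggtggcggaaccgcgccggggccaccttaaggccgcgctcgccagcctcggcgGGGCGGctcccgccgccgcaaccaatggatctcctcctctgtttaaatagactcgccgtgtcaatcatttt
CDKN2C: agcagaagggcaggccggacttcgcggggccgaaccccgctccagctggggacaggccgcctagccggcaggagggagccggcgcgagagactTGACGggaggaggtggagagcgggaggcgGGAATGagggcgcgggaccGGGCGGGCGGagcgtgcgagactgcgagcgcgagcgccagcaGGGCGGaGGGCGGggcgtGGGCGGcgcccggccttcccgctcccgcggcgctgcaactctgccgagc
CDK4: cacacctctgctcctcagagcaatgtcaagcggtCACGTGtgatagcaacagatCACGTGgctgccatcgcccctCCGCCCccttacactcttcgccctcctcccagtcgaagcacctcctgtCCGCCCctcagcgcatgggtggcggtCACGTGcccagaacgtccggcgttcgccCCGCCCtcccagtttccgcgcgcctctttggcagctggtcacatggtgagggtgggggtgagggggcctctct
CCNE1: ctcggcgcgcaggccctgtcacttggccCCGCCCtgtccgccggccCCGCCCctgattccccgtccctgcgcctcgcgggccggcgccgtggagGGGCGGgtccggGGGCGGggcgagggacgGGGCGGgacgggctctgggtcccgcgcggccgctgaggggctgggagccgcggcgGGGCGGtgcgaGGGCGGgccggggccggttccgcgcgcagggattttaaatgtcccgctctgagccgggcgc

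These stretches were rich in G and C, at 64.4% in CDKN1B, 77.2% in CDKN2C, 65.6% in CDK4 and 81.2% in CCNE1. The GC box (GGGCGG, the core that SP1 family factors bind) was found in 8 of the 11 entries, against 42.6% of 35116 RefSeq stretches of the same length. Those stretches were not matched for G and C content. All 6 genes with an entry had the GC box in at least 1 of their entries. In the stretches shown, it occurred 7 times in CCNE1, 5 times in CDKN2C, where 2 of the matches overlap, 3 times in CDK4 and 1 time in CDKN1B. The E-box CACGTG, searched after the sequences had been seen, was in 3 of the 11 entries (6.34% of all stretches). These were the CDK4 entry, with 3 matches, and the 2 CDKN2C entries not shown. Because the E-box was picked from these sequences, its share is no test. The core that TEAD factors bind (GGAATG) was in 3 of the 11 entries (11.9% of all stretches) and the CRE half-site TGACG in 4 (21.2%). No entry held a match to AP-1 (TGANTCA, in 6.57% of all stretches), the full CRE (TGACGTCA, 1.65%, which contains the half-site), E2F (TTTGGCGC, TTTCCCGC, TTTCGCGC or TTTGCCGC, 2.79%), FOXO (GTAAACA, 2.98%) or the CArG box (1.16%). These matches describe letters in 250-base windows only.

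Across all groups, the kinase CDK4 and the D cyclins CCND1 and CCND3 gave the most abundant of these transcripts, and CDKN1B, CDKN1C and CCNE2 the 3 least abundant. On the FPKM scale, the order CDK4, CCND1, CCND3 held in each of the 4 groups without overlap between neighbours. In GFP normal the mean levels were 192 ± 8.0 for CDK4, 101 ± 11.6 for CCND1 and 57.8 ± 3.84 for CCND3 (SD, n = 2, as for all means here). CCNE1 at 37.5 ± 6.85, CDK6 at 33.3 ± 2.39 and CCND2 at 31.1 ± 2.26 followed, and the libraries of neighbours in this trio overlapped. CDKN2C at 14.6 ± 1.84, CDKN1B at 8.78 ± 0.744, CCNE2 at 5.40 ± 0.225 and CDKN1C at 2.49 ± 0.255 came last without overlap. CDKN1C was the lowest of the 10 in both normal growth groups, and CCNE2 was the lowest in both serum groups. After serum in GFP cells, CDKN2C at 26.3 ± 6.44 had a mean above that of CCNE1 at 25.2 ± 3.01 and overlapped with it and with CDK6, and CDKN1C at 10.2 ± 1.59 overlapped with CDKN1B at 13.7 ± 3.80. In G13R serum, CDKN1C at 10.7 in both libraries lay above CDKN1B at 9.86 and 10.1. The range over the 8 libraries, highest over lowest, was narrowest for CCND1 at 1.23-fold and widest for CDKN1C at 4.90-fold.

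**Figure D1:**
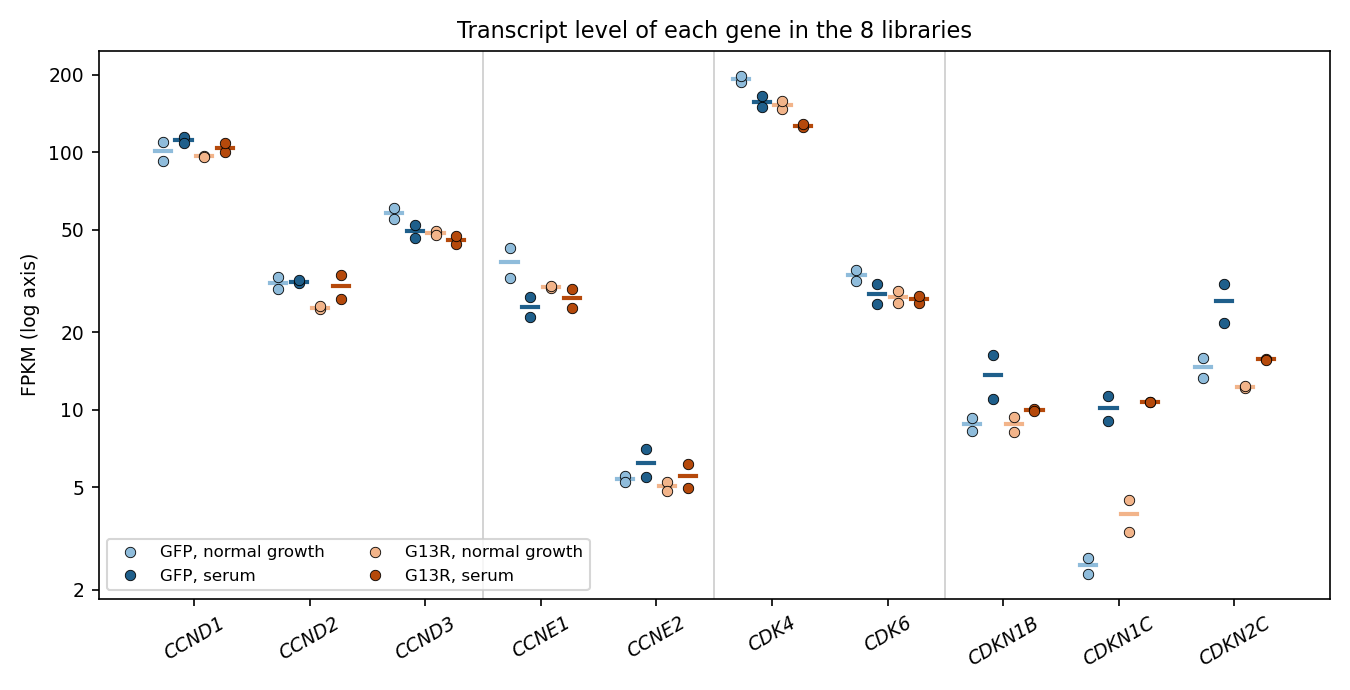
FPKM of each gene (log axis) in the 8 libraries, with points for libraries and short lines for the mean of the 2 libraries of a group. CDKN1C sits at 2.31 to 4.48 FPKM in the 4 normal growth libraries and at 9.07 to 11.3 in the 4 serum libraries.

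Serum against normal growth in GFP cells asks how these genes respond in the control. All 3 inhibitors among the 10 genes rose, while CCNE1 and CDK4 fell and the D cyclins, CCNE2 and CDK6 did not pass the test. Thus 5 of the 10 genes were called with limma at an adjusted p under 0.05, 3 higher and 2 lower, against 30.7% of all genes tested (14.9% higher and 15.7% lower). The libraries of the 2 groups did not overlap for 7 of the 10 genes, 3 higher and 4 lower after serum, against 66.3% of all genes (33.3% higher and 33% lower). The median log2 fold change of the 10 was 0.08 against 0.01 over all genes tested. Fold changes below are on the log2(FPKM + 1) scale with limma's standard error, and adjusted p-values are Benjamini-Hochberg values from limma over all 12996 genes. In these bulk samples fewer cells of a type and less RNA per cell cannot be told apart.

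CDKN1C encodes a Cip/Kip inhibitor known as an imprinted growth restraint, and lies at chr11:2904443-2907111 (hg19, as are all gene spans here). Its levels were 2.67 and 2.31 FPKM in GFP normal, 9.07 and 11.3 in GFP serum, 3.37 and 4.48 in G13R normal, and 10.7 and 10.7 in G13R serum. The serum libraries lay above the normal growth libraries in both kinds of cell, with no overlap between any of the 4 and the other 4. In GFP cells its mean was 4.09 times higher after serum, a log2 fold change of 1.68 ± 0.18 (adjusted p = 0.000192). Among the 12996 genes, 1.01% rose at least as much. In every alternative tried the call remained, with log2 fold changes from 1.51 to 1.99.

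CDKN2C, the INK4 inhibitor at chr1:51426417-51440305, was at 13.3 and 15.9 FPKM in GFP normal and at 21.8 and 30.9 in GFP serum. It was at 12.2 and 12.4 in G13R normal and at 15.8 and 15.6 in G13R serum. The GFP serum libraries were the highest of the 8 and differed from each other more than those of any other group. The log2 fold change in GFP cells was 0.80 ± 0.16 (adjusted p = 0.00509, 1.81-fold in mean FPKM). Without GFP serum replicate 2 it was 0.55 (adjusted p = 0.0296), and only with no filter on low values was the call lost (adjusted p = 0.0615).

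CDKN1B, the Cip/Kip inhibitor that is classically high in resting cells, lies at chr12:12867992-12875305. It was at 8.25 and 9.30 FPKM in GFP normal and at 11.0 and 16.3 in GFP serum, against 9.41 and 8.20 in G13R normal and 10.1 and 9.86 in G13R serum. The highest value, in GFP serum replicate 2, stood well above the other 7 libraries. The GFP log2 fold change was 0.56 ± 0.18 (adjusted p = 0.0387, 1.56-fold in mean FPKM). This call depended on single libraries. It fell to 0.29 (adjusted p = 0.254) without GFP serum replicate 2, and was lost without GFP normal replicate 1 (adjusted p = 0.179) or 2 (0.081) and without any one of the 4 G13R libraries (0.0516 to 0.0596). It was also lost with no filter (0.157), under quantile normalization (0.0782), without the trend (0.0568) and with only the compared libraries (0.087).

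CCNE1, the E cyclin of the G1/S boundary at chr19:30302805-30315215, was at 42.3 and 32.6 FPKM in GFP normal, 27.3 and 23.0 in GFP serum, 29.6 and 30.2 in G13R normal, and 24.8 and 29.3 in G13R serum. Both GFP normal libraries exceeded all the others, replicate 1 by the wider margin. The log2 fold change was -0.55 ± 0.14 (adjusted p = 0.0167, a ratio of 0.671 in mean FPKM). The call was lost without GFP normal replicate 1 (-0.37, adjusted p = 0.141) without GFP serum replicate 2 (-0.43, adjusted p = 0.0938), and with no filter on low values (adjusted p = 0.112). The other E cyclin, CCNE2 at chr8:95891998-95908906, ranged only from 4.86 to 7.02 FPKM over the 8 libraries, and its fold change was 0.17 ± 0.17 (adjusted p = 0.488).

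CDK4, the more abundant of the 2 catalytic partners of D cyclins here, lies at chr12:58142034-58149796. It was at 187 and 198 FPKM in GFP normal, 149 and 165 in GFP serum, 147 and 158 in G13R normal, and 125 and 128 in G13R serum. The GFP normal libraries were the 2 highest and the G13R serum libraries the 2 lowest. The GFP fold change was -0.30 ± 0.08 (adjusted p = 0.0219, a ratio of 0.815 in mean FPKM). It was lost without GFP normal replicate 1 (adjusted p = 0.0623) or 2 (0.128), without GFP serum replicate 1 (0.0731), and under quantile normalization, where it shrank to -0.09 (adjusted p = 0.340). It was also lost with no filter (0.0622), without the trend (0.083) and with only the compared libraries (0.0661). The related kinase CDK6, at chr7:92234235-92465908, was at 35.0 and 31.6 FPKM in GFP normal and at 30.8 and 25.7 in GFP serum. These groups did not overlap, but the change of -0.24 ± 0.12 did not pass (adjusted p = 0.166).

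None of the D cyclins, the regulatory subunits that join CDK4 and CDK6, passed the test. CCND1, at chr11:69455855-69469242, was at 92.4 and 109 FPKM in GFP normal and at 114 and 108 in GFP serum, which overlap. Its log2 fold change was 0.14 ± 0.09 with a 95% interval from -0.07 to 0.35 (adjusted p = 0.274). CCND2, at chr12:4382938-4414516, was at 32.7 and 29.5 FPKM in GFP normal and at 31.0 and 31.8 in GFP serum. Its change was 0.01 ± 0.12 with an interval from -0.25 to 0.28 (adjusted p = 0.937). CCND3, at chr6:41902671-42018095, was at 55.1 and 60.6 FPKM in GFP normal and at 46.3 and 52.3 in GFP serum. These groups did not overlap, and the change was -0.23 ± 0.10 (adjusted p = 0.109).

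Serum in G13R cells was the same comparison in the presence of the actin mutant. Only CDKN1C passed the test, 1 of 10 genes called, against 12.9% of all genes (8.26% higher and 4.62% lower). It rose by 1.25 ± 0.18 on the log2 scale (adjusted p = 0.00236), which is 2.72-fold in mean FPKM, and 1.03% of all genes rose at least as much. The call remained in every alternative tried, with log2 fold changes from 1.09 to 1.43. The G13R libraries did not overlap between conditions for 8 of the 10 genes, 5 higher and 3 lower after serum, against 60.7% of all genes (34.3% higher and 26.4% lower).

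For the other inhibitors the G13R values were higher after serum in both libraries without passing. CDKN2C changed from 12.2 and 12.4 to 15.8 and 15.6 FPKM, a log2 difference of 0.33 ± 0.16 (adjusted p = 0.209), and CDKN1B had a difference of 0.17 ± 0.18 (adjusted p = 0.578). CDK4 values were lower after serum by -0.27 ± 0.08 (adjusted p = 0.058). Leaving out GFP serum replicate 1 or 2 moved CDK4 past the threshold, although its fold change did not move. What moved its adjusted p was not tested. CCNE1, at 29.6 and 30.2 in G13R normal and 24.8 and 29.3 in G13R serum, had a difference of -0.14 ± 0.14 (adjusted p = 0.547). The D cyclin differences were 0.11 ± 0.09 for CCND1, 0.26 ± 0.12 for CCND2 and -0.08 for CCND3, with adjusted p-values of 0.475, 0.183 and 0.619. CCND2 was at 24.6 and 25.2 FPKM in G13R normal and at 33.4 and 26.9 in G13R serum. CCNE2 at 0.11 and CDK6 at -0.03 were close to no difference (adjusted p = 0.721 and 0.891).

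**Figure D2:**
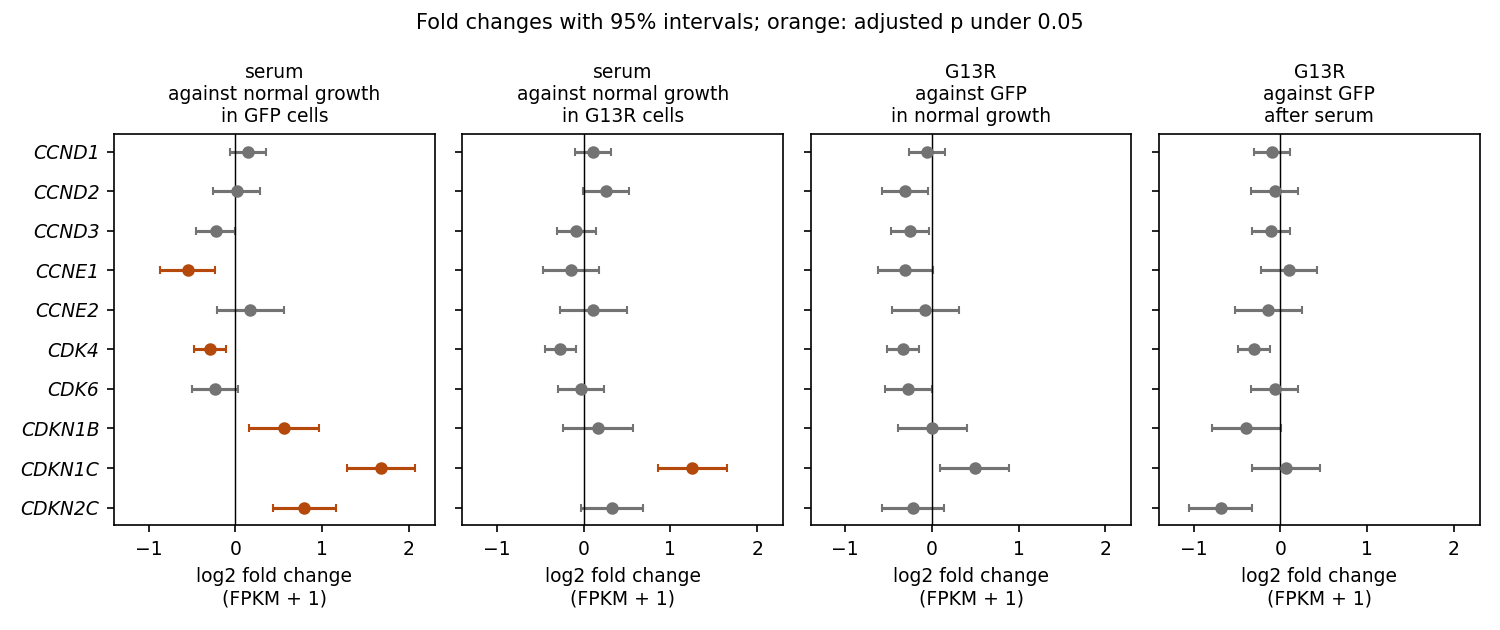
Log2 fold change of each gene on the log2(FPKM + 1) scale (x axis) with limma's 95% interval in 4 comparisons; orange marks an adjusted p under 0.05. In GFP cells 5 genes are orange, in G13R cells only CDKN1C, and in both comparisons of G13R with GFP none.

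Whether the serum response itself differed between G13R and GFP cells was tested as the difference of the 2 responses. With limma, 0 of the 10 genes passed, as did 0% of all genes tested, and 0 of the 10 had an unadjusted p under 0.05, against 1533 genes in all. The differences, G13R minus GFP, were -0.47 ± 0.23 for CDKN2C (adjusted p = 0.454), -0.42 ± 0.25 for CDKN1C (0.531), -0.39 ± 0.25 for CDKN1B (0.568) and 0.41 ± 0.20 for CCNE1 (0.462). In these 4 genes the G13R change was nearer to 0 than the GFP change, and the test found none of them different. Leaving out GFP serum replicate 2 shrank the difference to -0.23 for CDKN2C and -0.13 for CDKN1B. Without GFP serum replicate 1 the test called 486 genes, with still 0 of the 10 among them.

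**Figure D3:**
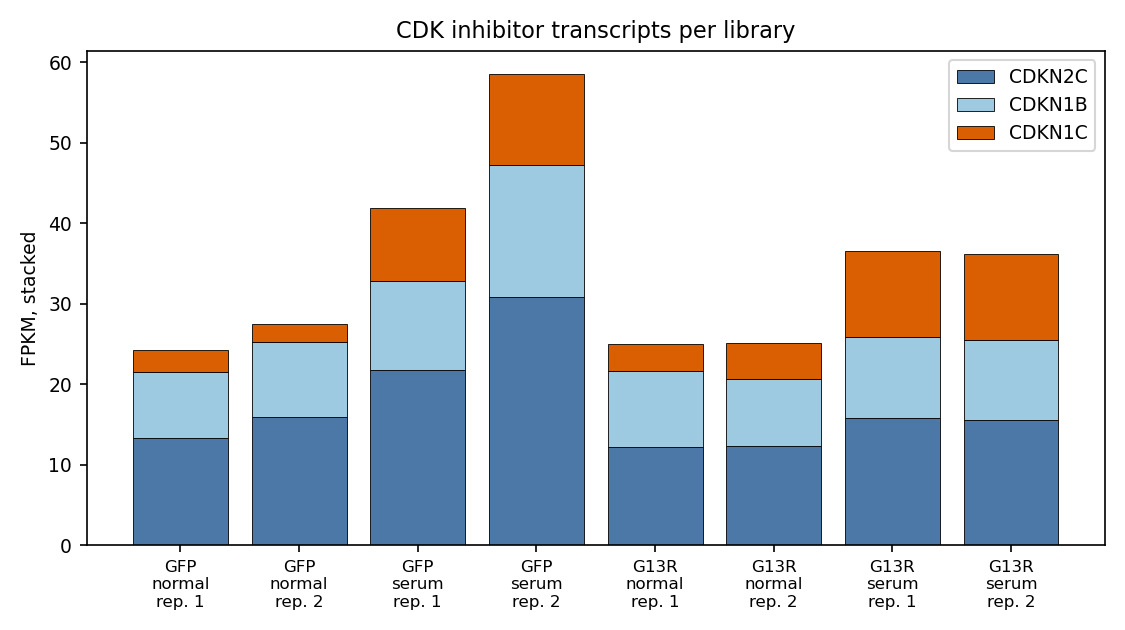
FPKM of CDKN2C, CDKN1B and CDKN1C stacked in each library (y axis in FPKM, bars from 0). The sum is 24.2 to 27.5 in the 4 normal growth libraries, 41.8 and 58.6 in GFP serum and 36.6 and 36.2 in G13R serum.

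The summed level of CDKN2C, CDKN1B and CDKN1C thus lay higher in the 4 serum libraries than in the 4 others. The make-up of this sum is described without a test, because it was chosen after the values were seen. CDKN1C made up 9.72% ± 1.86 of this sum in GFP normal, 20.5% ± 1.66 in GFP serum, 15.7% ± 3.07 in G13R normal and 29.3% ± 0.256 in G13R serum. CDKN2C held the largest part of this sum in each group, from 56.3% ± 2.05 in GFP normal down to 43.2% in G13R serum. The sum leaves out other CDK inhibitors, among them CDKN2B, CDKN2D and the far more abundant CDKN1A. Mean levels of CDKN1A were 110 FPKM in GFP normal, 183 in GFP serum, 95.8 in G13R normal and 146 in G13R serum.

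Among the D cyclins, CCND1 was the largest part in each group. It made up 53.0% ± 2.43 of their FPKM in GFP normal, 57.9% ± 2.33 in GFP serum, 56.8% ± 0.148 in G13R normal and 57.8% ± 1.89 in G13R serum. The share of CCND3 was 3.98 percentage points lower after serum than in normal growth, at 30.5% ± 0.0933 and 25.7% ± 2.10 in GFP cells and 28.6% ± 0.548 and 25.4% ± 0.970 in G13R cells. A two-sided exact permutation test within each kind of cell gave p = 0.0556, the smallest that 36 arrangements allow, and 0.278 after adjustment over the 5 shares tested. CCNE1 made up 87.3% ± 1.57 of the E cyclin FPKM in GFP normal, 80.0% ± 4.71 in GFP serum, 85.5% ± 0.882 in G13R normal and 82.8% ± 3.84 in G13R serum (exact permutation p = 0.111, adjusted 0.278). The CDK4 share of CDK4 with CDK6 lay between 82.5% and 85.2% in the 4 groups (exact permutation p = 0.278, adjusted 0.347). This design could therefore not have called any share at 0.05.

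G13R against GFP in normal growth compared the 2 constructs in the libraries labelled as normal growth. None of the 10 genes passed (limma, 5 at an unadjusted p under 0.05), against 0.0462% of all genes tested, or 6 genes (0.0385% higher and 0.00769% lower), with 1968 at an unadjusted p under 0.05. The G13R libraries lay below both GFP libraries for 6 of the 10 genes (CCND2, CCND3, CCNE1, CDK4, CDK6 and CDKN2C) and above them for CDKN1C, against 48.7% of all genes without overlap (34.3% lower and 14.4% higher). The median log2 difference of the 10 was -0.24, against -0.07 over all genes. CDK4 had a difference of -0.33 ± 0.08 (adjusted p = 0.161), CCND2 of -0.31 (0.261), CCNE1 of -0.31 (0.356), CDK6 of -0.27 (0.323) and CCND3 of -0.25 (0.269). CDKN1C, at 3.37 and 4.48 against 2.67 and 2.31 FPKM, had the opposite sign at 0.49 ± 0.18 (adjusted p = 0.241), and CDKN1B had a difference of 0.00 (SE 0.18).

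After serum the G13R and GFP cells were compared in the same way, with libraries that the serum comparisons also use. Again 0 of the 10 passed (limma, 2 at an unadjusted p under 0.05), against 0.823% of all genes (0.331% higher and 0.492% lower), 107 in number, with 2705 at an unadjusted p under 0.05. The G13R libraries lay below both GFP libraries for 4 of the 10 genes (CCND1, CDK4, CDKN1B and CDKN2C) and above them for 0, while 51.9% of all genes did not overlap (29.4% lower and 22.6% higher). CDKN2C was at 21.8 and 30.9 FPKM in GFP cells and at 15.8 and 15.6 in G13R cells, a difference of -0.69 ± 0.16 (adjusted p = 0.0689), and 2.56% of all genes had one at least as low. CDK4 had a difference of -0.31 ± 0.08 (adjusted p = 0.0918) and CDKN1B of -0.39 ± 0.18 (adjusted p = 0.249). Without GFP serum replicate 1 the differences were -0.93 for CDKN2C, -0.38 for CDK4 and -0.66 for CDKN1B. Without GFP serum replicate 2 they were -0.45 for CDKN2C and -0.12 for CDKN1B. CDKN1C, at 9.07 and 11.3 against 10.7 and 10.7 FPKM, overlapped.

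Other genes of the pathway were counted in 4 lists, which carry no test of their own and are to be read against the shares and medians over all genes. For serum in GFP cells those shares were 14.9% higher and 15.7% lower (median 0.01), and in G13R cells 8.26% higher and 4.62% lower (median 0.04). In the module of RB proteins and E2F factors, 1 of 13 genes rose and 1 fell with serum in GFP cells, and again in G13R cells, with medians of 0.03 and 0.01. RBL2, an RB relative that works with repressive E2F factors, went from 7.27 and 6.85 to 13.8 and 14.5 FPKM in GFP cells and from 6.10 and 8.03 to 12.3 and 12.1 in G13R cells. Its log2 fold changes were 0.91 and 0.72, the second lost without G13R normal replicate 1 (adjusted p = 0.0959), G13R serum replicate 1 (0.0873) or 2 (0.0826), and with no filter on low values (0.0649). E2F4, an E2F that RBL2 partners with, fell by 0.53 and 0.31. The G13R call for E2F4 was lost on leaving out any of 6 libraries, all but the GFP serum pair (adjusted p = 0.0579 to 0.179), and without the intensity trend (0.0968).

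Of 20 other regulators of G1 kinases, 19 could be tested, since CDKN2A did not pass the filter. In GFP cells 2 rose and 5 fell with serum (median -0.05), and in G13R cells 2 rose and 0 fell (median -0.01), so the shares called lay near those of all genes, 30.7% and 12.9%. The 2 that rose were the inhibitors CDKN2B and CDKN1A in both cases. CDKN2D, another INK4 inhibitor in this list, did not pass. Its log2 fold changes were 0.21 in GFP cells (limma adjusted p = 0.332) and 0.23 in G13R cells (adjusted p = 0.367). CDKN2B, an INK4 inhibitor, was at 1.63 and 1.60 FPKM in GFP normal, 12.7 and 14.6 in GFP serum, 7.63 and 2.74 in G13R normal, and 10.8 and 12.0 in G13R serum. The G13R normal libraries were far apart. Its log2 fold change was 2.48 in GFP cells and 1.13 in G13R cells, where the call was lost without G13R normal replicate 2 (0.52, adjusted p = 0.147), G13R serum replicate 1 (0.139) or 2 (0.178), and GFP normal replicate 1 (0.0581) or 2 (0.0586). It was also lost with no filter on low values (0.24), under quantile normalization (0.0628), without the intensity trend (0.0821) and with only the compared libraries in the fit (0.0512). CDKN1A, the Cip/Kip inhibitor induced by p53, went from 107 and 113 to 165 and 201 FPKM in GFP cells and from 99.1 and 92.4 to 142 and 149 in G13R cells, at 0.72 and 0.60. The latter was lost without G13R serum replicate 2 (adjusted p = 0.0589) and with no filter (0.0712). CDC25A, the phosphatase that activates G1 kinases, fell by 0.88 in GFP cells, and FBXO31, a ubiquitin ligase part, fell by 0.84. Both calls were lost with no filter on low values (adjusted p = 0.0519 and 0.058). FBXO31 was higher in G13R than in GFP cells after serum by 0.86 (adjusted p = 0.0487), a call lost without any one of 7 libraries (adjusted p up to 0.354), with a pseudocount of 0.1 (0.0506), with no filter (0.244), without the trend (0.134) and with only the compared libraries (0.195).

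Among 21 E2F targets of the G1/S boundary, 0 rose and 6 fell with serum in GFP cells (median -0.17), against 14.9% and 15.7% of all genes and a median of 0.01. In G13R cells 0 passed the test and 7 had an unadjusted limma p under 0.05 (median -0.14), against 3810 of all 12996 genes. Of these 7, MCM6 (0.33) and CDT1 (0.40) were higher after serum, and CCNA2, CDC6, CDC45, RRM1 and UNG were lower. CDC45, a part of the replicative helicase, went from 64.4 and 73.3 to 46.3 and 42.2 FPKM in GFP cells, a change of -0.63. CCNA2, the S phase cyclin, changed by -0.48, the uracil glycosylase UNG by -0.44 and the licensing factor CDC6 by -0.41. All 3 calls were lost without GFP normal replicate 2 (adjusted p = 0.0598, 0.143 and 0.0862), those of UNG and CDC6 without GFP serum replicate 2 (0.0824 and 0.0585), and that of UNG with no filter (0.0875). In normal growth 20 of the 21 were at or below the GFP level in G13R cells (median -0.30), with 0 past the test (limma, 14 at an unadjusted p under 0.05). Over all 12996 genes in that comparison the median was also below 0, at -0.07, with 6 called and 1968 at an unadjusted p under 0.05. After serum, TYMS was lower in G13R cells by -0.50 (adjusted p = 0.0487), which was lost without any one of 7 libraries (up to 0.365), with a pseudocount of 0.1 (0.0506), with no filter (0.219), without the trend (0.142) and with only the compared libraries (0.196).

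Of 20 factors upstream of D cyclin and CDKN1B transcription, 5 rose and 1 fell with serum in each kind of cell (medians 0.24 and 0.19). The factor that fell was not the same. FOSL1 fell in GFP cells (-0.59, and -0.01 in G13R cells). FOSL2 fell in G13R cells (-0.52, and -0.29 in GFP cells without passing). The immediate-early factor FOS was at 4.04 and 4.61 FPKM in GFP normal and at 110 and 243 in GFP serum, against 4.84 and 6.70 in G13R normal and 37.7 and 48.7 in G13R serum. Its GFP change was 4.95 and its G13R minus GFP difference after serum was -1.91 (adjusted p = 0.0376), a call lost without any one of 7 libraries (up to 0.354), with no filter (0.246), without the trend (0.127) and with only the compared libraries (0.195). The FOS call with serum in G13R cells was lost with no filter (0.0541). EGR1 rose by 3.51 in GFP cells and 3.08 in G13R cells. JUNB rose by 2.37 and 1.15 and JUND by 1.65 and 1.19. In G13R cells the JUNB call was lost without 3 of the 4 G13R libraries (adjusted p up to 0.0984) and the JUND call without any one of the 4 (up to 0.112). With no filter the JUNB call in G13R cells (0.156) and the JUND calls in GFP and G13R cells (0.0549 and 0.173) were lost, and without the trend the JUND call in G13R cells (0.053).

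**Figure D4:**
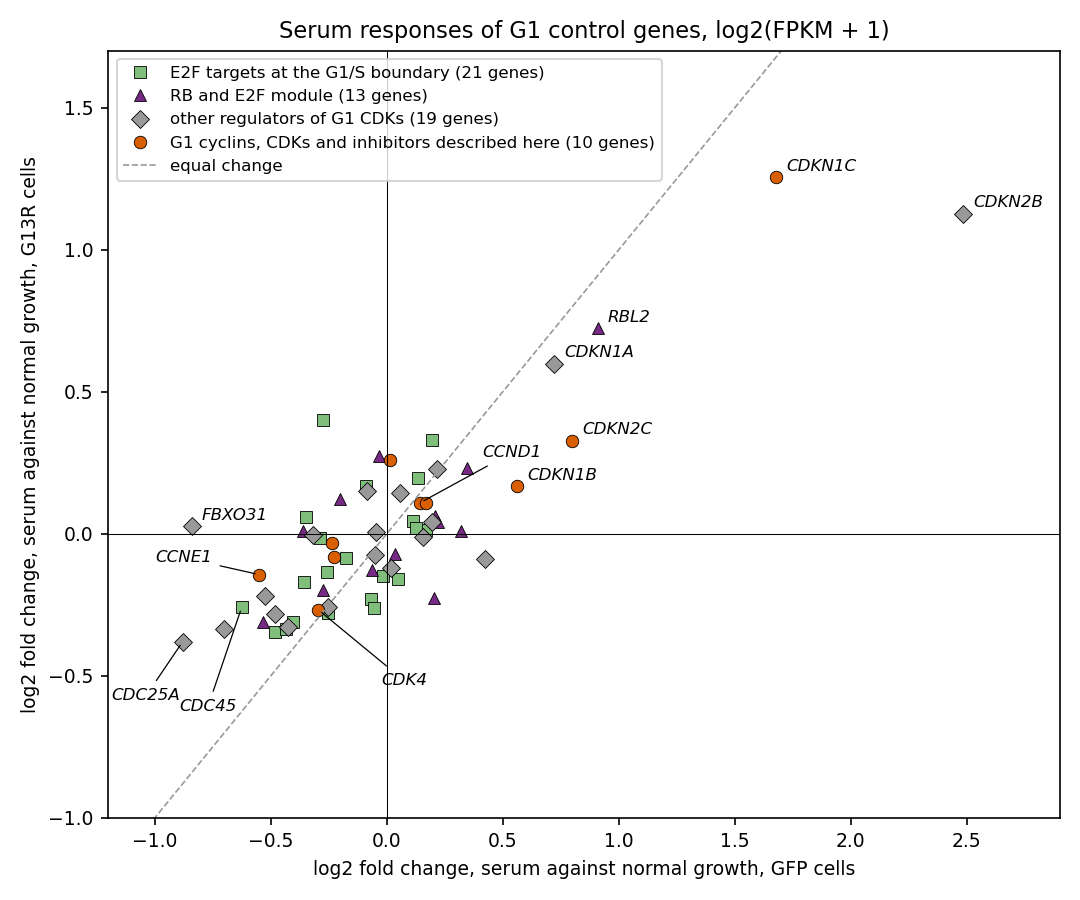
Log2 fold change with serum in GFP cells (x axis) against G13R cells (y axis), both on the log2(FPKM + 1) scale, for the 10 genes and 3 of the lists; the dashed line marks equal change. CDKN1C lies at 1.68 and 1.25 and CDKN2B at 2.48 and 1.13.

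The genes most like each of the 10 over the 8 libraries were named by Pearson's r of log2(FPKM + 1) among 8794 genes, as a description in which the serum split and the library set are shared by all points. For CDKN1C they were SLC22A18 (r = 0.990), ZNF703 (0.990) and GRN (0.988). CDKN2C was most like AGBL5 (0.993), PSAP (0.993) and DDB2 (0.991), and CDKN1B most like KIAA1671 (0.989), HEXA (0.987) and MADD (0.987). CDK4 was followed closest by EEF1B2 (0.998), PCBP2 (0.993) and XRCC6 (0.993), and CCNE1 by USP1 (0.990), PIF1 (0.986) and PTPLAD1 (0.971). CCND2 had the weakest leading match, LRIG1 (0.928). Among the 10 themselves, CDKN1B and CDKN2C (0.941) and CCND3 and CDK4 (0.912) were the most alike, and CCNE1 and CDKN1C (-0.789) the most opposed.

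Some of these gene spans overlap others. The CDK4 span overlaps TSPAN31 over 25.3% of its length (mean 7.38 FPKM) and a gene listed as 9-Mar over 11.8% (8.08 FPKM). CCND1 overlaps ORAOV1 over 10.4% (28.5 FPKM). CCNE2 overlaps INTS8 over 11.7% (16.2 FPKM) and NDUFAF6 over 5.39% (18.4 FPKM). Both of these lay above CCNE2 itself, which had a mean of 5.57 FPKM over all libraries. The sources used here do not say whether counting used strand, so reads in these overlaps could not be told apart.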

How the data were processed

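The authors deposited 1 table of FPKM values per gene for the 8 libraries. TopHat2 2.0.13, Cufflinks 2.2.1 and the builds hg19 and BDGP5 are named, per the submitters' processing notes. Table columns were assigned by their names (C taken as normal growth), and 1 was added to gene starts, which count from 0. The table keeps no counts, so no count model or counting interval was used and 2 libraries per group limit the precision.

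A trended limma 3.58.1 fit (R 4.3.3) on log2(FPKM + 1) gave each group a mean, after genes below 1 FPKM in all but 1 library or in all were dropped. The 8 libraries shared the estimate of spread (4 residual degrees of freedom), and the fit was tested on simulated data. Fold changes on this scale understate those of low genes. Median-ratio and quantile scaling, pseudocount and filter choices, fits without trend, with a replicate block or on the compared libraries alone, and each library left out were the alternatives.

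The 10 genes and the lists were chosen with earlier results of these data known. Named list genes were mainly up to 4 called ones per list and contrast by size of change. A few others are named to give the direction behind a count. The most alike genes were sought among those with a mean of at least 5 FPKM and an SD of at least 0.1 on the log2 scale. Motifs were searched on both strands.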

Additional observations from a re-analysis of the deposited data

How the results depend on the processing

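For the 10 genes, 729 of 790 values under the alternatives kept their direction and their side of the threshold, 22 were no longer past it and 11 moved past it. The other 28 changed sign, over 13 pairs of a gene and a comparison, and 0 of them were past the threshold either way. The count of 5 genes called with serum in GFP cells became 1 without the filter, 3 under quantile normalization, 3 without the intensity trend and 3 with only the compared libraries in the fit, and 2 to 4 when 1 library was left out. More genes are tested without the filter and fewer samples enter with only the compared libraries. The cause was not tested for any of these changes in the count. The G13R serum count of 1 became 2, by CDK4, with the filter at 5 FPKM, median-ratio scaling, the replicate block or only the compared libraries, and 1 to 2 with 1 library left out. The count of 0 for G13R against GFP after serum became 2, CDK4 and CDKN2C, under the replicate block (adjusted p = 0.0481 and 0.0476), and 0 to 3 with 1 library left out. Same-numbered libraries shared little of their deviation (r = 0.017 to 0.121 over 6 pairs of groups), so the numbers were not taken to pair them, and the replicate block left the GFP serum count at 5. Under quantile normalization the median of the 10 genes in G13R against GFP in normal growth was -0.14. Depth is unknown, so for low genes such as CCNE2 no counting error could be given. The sign changes were all in fold changes of at most 0.141 in size. CCND2 with serum in GFP cells (0.015) was -0.006 under median-ratio scaling and -0.057 to 0.087 with 1 library left out. CCND1 in G13R against GFP in normal growth (-0.059) was 0.005 under median-ratio scaling, 0.073 under quantile normalization and -0.176 to 0.057 with 1 library left out. The CDK4 difference of responses (0.027) was -0.001, -0.11 and -0.045 to 0.099 in the same order. CCNE2 with serum in G13R cells (0.108) was -0.034 under quantile normalization and -0.023 to 0.239 with 1 library left out. With 1 library left out, the ranges were -0.112 to 0.05 for CDK6 with serum in G13R cells and -0.087 to 0.092 for CDKN1B in G13R against GFP in normal growth. After serum, the G13R against GFP ranges were -0.219 to 0.086 for CCND2, -0.018 to 0.218 for CCNE1, -0.296 to 0.014 for CCNE2, -0.195 to 0.06 for CDK6 and -0.077 to 0.214 for CDKN1C. For the difference of responses they were -0.151 to 0.082 for CCND1 and -0.217 to 0.093 for CCNE2. The CCND2 share of D cyclins, 1.0 percentage points higher after serum, ranged from -0.00932 to 2.02. The cause of these changes was not tested.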

Other observations

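The gene most like CDKN1C over the 8 libraries, SLC22A18, a transporter gene, is also its neighbour on chromosome 11, at chr11:2920951-2946476 (hg19), 13839 bases away. Its proximity was noticed after the values had been seen. SLC22A18 was at 4.17 and 4.42 FPKM in GFP normal, 11.5 and 14.3 in GFP serum, 4.67 and 6.02 in G13R normal, and 12.3 and 14.0 in G13R serum. Its log2 fold changes with serum were 1.39 ± 0.17 in GFP cells (limma adjusted p = 0.000402) and 1.16 ± 0.17 in G13R cells (adjusted p = 0.00259), and both calls remained in every alternative tried. PHLDA2, 42391 bases from CDKN1C, was at 60.0 and 48.3 FPKM in GFP normal, 46.3 and 31.0 in GFP serum, 59.9 and 60.2 in G13R normal, and 81.1 and 63.4 in G13R serum (r = -0.121 with CDKN1C). Of the other genes nearby that passed the filter, NAP1L4 had r = -0.14, KCNQ1 r = -0.169, CARS r = -0.852 and SLC22A18AS, at 0.046 to 1.15 FPKM, r = 0.734, over 8 libraries that share the serum split.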
